A study of Homo sapiens with 9 samples.

Results

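The proteasome subunit genes described here are the protein-coding genes whose symbol is PSM, a letter from A to G and a number. Of the 86 symbols with this pattern in the deposited gene list, 37 belong to pseudogenes, antisense transcripts and other non-coding genes and were left out, which leaves 49 of the 58735 genes listed. Of these, 48 encode parts of the proteasome or its helpers, and PSMC3IP, a meiotic recombination factor named for its binding to PSMC3, was taken by its name alone. The 20S core accounts for 19 genes, made up of 7 alpha ring subunits, 7 constitutive beta ring subunits and 5 variants (PSMA8, PSMB8, PSMB9, PSMB10 and PSMB11). The 19S particle accounts for 17, with 6 ATPases and 11 other subunits, and the other regulators for 12, with 3 chaperones of 19S assembly, 4 of 20S assembly, 4 activators and the inhibitor PSMF1.

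RNA sequencing was carried out on HEK293T, an established cell line from human embryonic kidney that expresses SV40 large T antigen. In every library the cells carried PRPS1 with an HA epitope and the dTAG degron, and PRPSAP1 with a V5 epitope and the BromoTag degron, so the DMSO controls were tagged too. The 3 groups of 3 libraries received DMSO, dTAG47, which directs the dTAG to the ubiquitin ligase receptor CRBN, or AGB1, which directs the BromoTag to VHL. Both compounds were used at 500 nM for 24 h. The labels do not say whether the line is a single clone or whether the libraries came from separate cultures, so p-values cover only library-to-library spread, part or all of which may be technical.

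The 20S core is a barrel of outer alpha rings, which form the gate, and inner beta rings, which hold the protease sites. The 19S particle binds ubiquitylated proteins, removes the ubiquitin and uses its ATPases to unfold and feed the substrate into the barrel. PROTAC-type compounds such as dTAG47 and AGB1 depend on this machine for the loss of their targets. The transcription factor NRF1 (NFE2L1) is known to raise proteasome genes together when proteasome capacity falls short, and interferon is known to induce the variant subunits of the immunoproteasome.

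Total counts per library were between 27964128 and 44803380, and 18319 genes were tested. The common biological coefficient of variation was 11.0%. The labelled cell type, epithelial, was checked against markers: 4 of 6 epithelial markers were at 1 CPM (the count scaled to library size) or more, with KRT19 at or near 0 and CLDN4 below 1 CPM on average, and their summed level was 94.1 to 100 CPM in DMSO, 83.2 to 96.1 CPM with dTAG47 and 88.9 to 96.5 CPM with AGB1. Of 8 kidney and neural markers known from HEK293 cells, 7 reached 1 CPM and PAX8 was at or near 0, and their sums overlapped between the groups. Of 5 endothelial and fibroblast markers, 1 reached 1 CPM (COL1A1), while CDH5 and DCN and the blood markers PTPRC and HBB were at or near 0. The mRNAs of the tagged genes, which do not report protein loss, were at 99.1 to 113 CPM for PRPS1 and 23.5 to 36.6 CPM for PRPSAP1 over the 9 libraries.

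Proteasome genes were abundant in the DMSO-treated cells. The 48 genes together took 0.640% to 0.672% of all counts in the 9 libraries. On a scale of CPM per kilobase of the deposited gene length, the highest members were PSMA7, an alpha ring subunit, at 157 ± 11.6 (SD, n = 3) and the beta ring subunit PSMB4 at 149 ± 9.84, whose DMSO libraries overlapped. PSMB3 at 133 ± 7.18 lay below both without overlap, and above PSMB7 at 113 ± 3.40 without overlap. The next libraries overlapped from PSMB7 through PSMB5 at 104 ± 6.28 to PSMD10 at 98.9 ± 5.18. PSMD10, also called gankyrin and a chaperone of 19S assembly, was the highest of the other regulators. The highest 19S gene was the ATPase PSMC3, at 76.5 ± 3.13.

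By class, the median level per kilobase was 104 for the beta ring, 27.4 for the alpha ring, 34.3 for the 19S particle and 19.2 for the other regulators. The 19S genes spanned 12.1 (PSMC1) to 76.5, a narrower range than that of the alpha ring, from 0.337 (PSMA6) to 157. The 7 beta ring genes lay between 46.3 (PSMB2) and 149. With the longest coding transcript as the length, chosen after the values were seen, the medians were 142 for the beta ring, 42.1 for the alpha ring and 72.1 for the 19S particle. On that length PSMB4 (334) lay above PSMA7 (275), and PSMD4 (146), PSMD8 (140.5) and PSMD3 (121) lay above PSMC3 (110.2) among the 19S genes, so the order of levels depends on the length used. In the assembled ring the 7 alpha proteins are present in equal number.

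**Figure D1:**
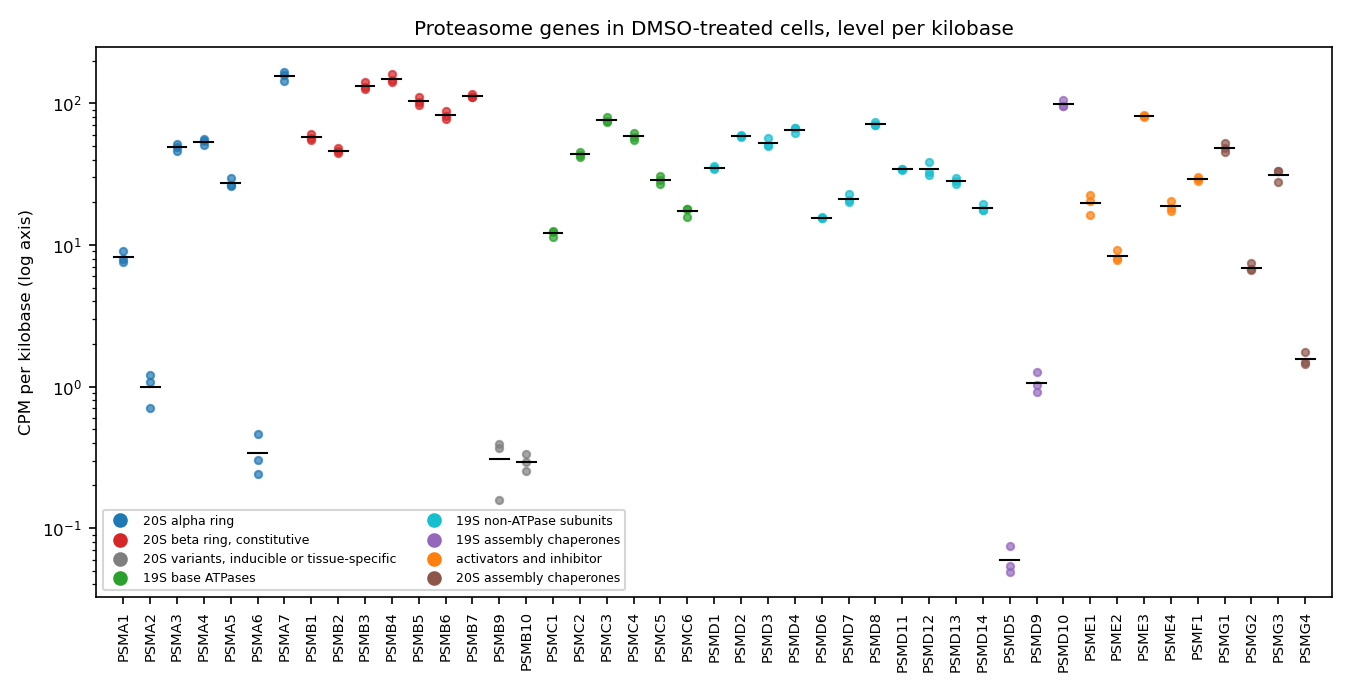
Level of each proteasome gene in the 3 DMSO libraries, in CPM per kilobase of deposited gene length on a log axis, with points for libraries, bars for their mean and colours for classes. Beta ring genes lie between 46.3 and 149 while the alpha ring reaches down to 0.337 for PSMA6; PSMA8, PSMB8 and PSMB11, with 0 counts in at least 1 DMSO library, are not drawn.

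The 3 lowest genes of the 14 in the rings were alpha ring genes: PSMA1 at 8.20 ± 0.821 CPM per kilobase, PSMA2 at 0.997 ± 0.264 and PSMA6 at 0.337 ± 0.115. In the order of levels, PSMA2 overlapped its upper neighbour PSMD9, and PSMA6 overlapped its lower neighbour PSMB9. All 3 share transcript sequence with other annotated genes. Of the 75-base words in the longest coding transcript of PSMA6, 83.5% also occur in transcripts of other genes, most of them in AL121594.1, a protein-coding gene annotated on the same strand. The share was 50.1% for PSMA2, with the same-strand gene AC010132.3, and 41.8% for PSMA1, with AC018523.2. The other 11 ring genes shared no word with another gene.

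Those overlapping genes held few counts themselves, with 36 counts for AL121594.1, 11 for AC010132.3 and 0 for AC018523.2 over all 9 libraries. PSMA6P1, a processed pseudogene of PSMA6, held 536 counts, or 85.2% as many as PSMA6 itself. In the 19S particle, PSMC1 shared 96.3% of its words with 8 genes, and 75.8% of its exonic bases lie opposite NRDE2. Its pseudogene PSMC1P1 held 771 counts, 3.37% as many as PSMC1. The counting tool, its strand setting and its treatment of reads that fit several genes were not given in the sources used here, so levels of PSMA1, PSMA2, PSMA6, PSMC1, PSMC5, PSMC6, PSMD7, PSMD9, PSMB8, PSMB10 and PSMC3IP, which share 15.5% or more of their words, are uncertain. The part of shared sequence in the low levels was not tested.

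**Figure D2:**
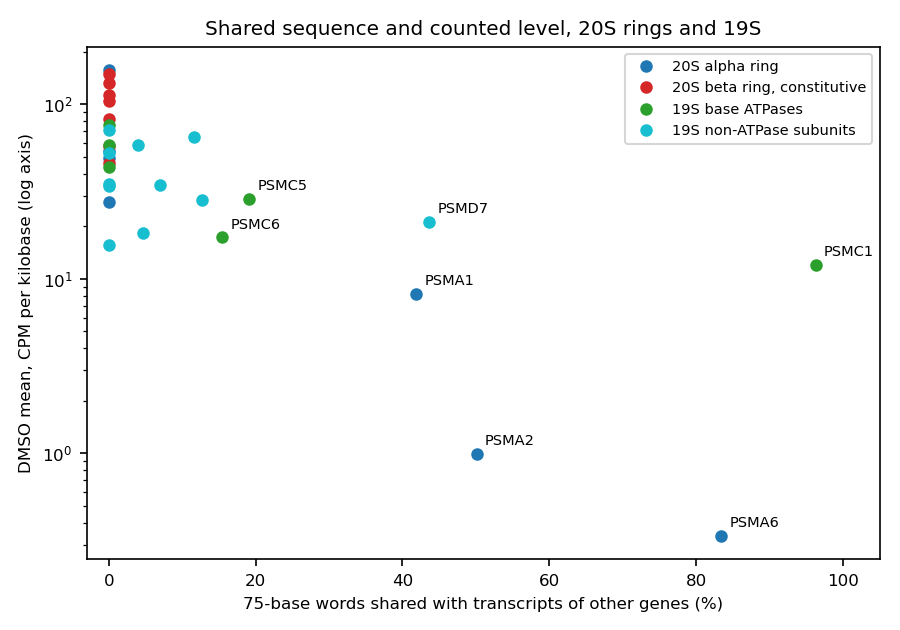
Share of 75-base words of the longest coding transcript that occur in transcripts of other genes (x axis, percent) against the DMSO mean level in CPM per kilobase (y axis, log), for the 31 ring and 19S genes. The 3 lowest genes, PSMA1, PSMA2 and PSMA6, have shares of 41.8% to 83.5%, and PSMC1 has a share of 96.3% at a level of 12.1.

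The variant subunits were at the floor of detection or near it. PSMB8, PSMB9 and PSMB10 replace the catalytic subunits PSMB5, PSMB6 and PSMB7 in the immunoproteasome, PSMB11 belongs to the thymus and PSMA8 to the testis. PSMB11 had 0 counts in all 9 libraries, where a count of 3, the limit that 0 counts allow, stands for 0.0670 to 0.107 CPM by library. PSMB8 had 0, 3 and 0 counts in DMSO 1 to 3, 0, 2 and 0 with dTAG47 and 0, 1 and 0 with AGB1. PSMA8 had 0, 2 and 3 counts in DMSO and 0 in all treated libraries. These limits cover counting error only.

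PSMB9 was at 1.21, 1.12 and 0.482 CPM in DMSO, 0.625, 0.983 and 0.160 CPM with dTAG47 and 0.325, 0.501 and 1.23 CPM with AGB1. The groups overlapped, and the log2 fold changes of -0.64 (95% interval -1.89 to 0.62) and -0.45 (-1.71 to 0.81) allow large shifts either way. PSMB10 was at 0.545, 0.467 and 0.616 CPM in DMSO, 1.05, 0.290 and 0.705 CPM with dTAG47 and 1.38, 1.00 and 0.874 CPM with AGB1. All 3 AGB1 libraries lay above DMSO, at a log2 fold change of 1.00 ± 0.54 (SE) that did not pass the test (adjusted p = 0.687, edgeR). PSMB10 shares 35.4% of its words with the same-strand gene AC040162.1, which was at 2.52 CPM on average, and the part of those reads in the PSMB10 counts was not tested. PSMB8, PSMA8, PSMB11 and the 19S chaperone PSMD5 fell below the filter on low counts and were not tested. PSMD5 had 11, 7 and 9 counts in DMSO, 6, 11 and 5 with dTAG47 and 3, 13 and 6 with AGB1, and was the lowest of the other regulators at 0.0596 ± 0.0137 CPM per kilobase.

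The question put to the remaining 44 proteasome genes was whether their mRNA levels differ after PRPS1 or PRPSAP1 is targeted. None passed an adjusted p of 0.05 in edgeR's quasi-likelihood test in either comparison, where 0.06% of all tested genes passed with dTAG47 and 0.104% with AGB1. DESeq2 and limma-voom also called 0 of the members. At an unadjusted p under 0.05 there were 2 members with dTAG47 (PSMF1 and PSME1), both on the higher side, beside 7.28% of all tested genes (3.65% on the higher side and 3.62% on the lower), and 4 with AGB1 (PSMF1, PSMB6, PSMB2 and PSMD2), all on the higher side, beside 7.76% (3.55% and 4.21%). In these bulk libraries, a level that differs per cell cannot be told apart from a shift in the mix of cells.

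The data bound most of the members closely. The 95% interval of the fold change lay within 1.3-fold either way for 37 of the 44 genes with dTAG47, against 48.5% of all tested genes, and for 37 of 44 with AGB1, against 48.3%. The 7 exceptions were the same in both comparisons: PSMA2, PSMA6, PSMB9, PSMB10, PSMD9, PSME1 and PSMG4. The members' median level was 145 CPM and that of all tested genes 14.8 CPM. The median log2 fold change over the 44 was 0.00392 with dTAG47 and 0.0424 with AGB1, beside -0.000974 and -0.000924 over all tested genes. Signs were positive in 23 of 44 with dTAG47 and 29 of 44 with AGB1, beside 49.7% of all tested genes in each. The 2 comparisons share their DMSO libraries, so their values stand side by side and are not independent.

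**Figure D3:**
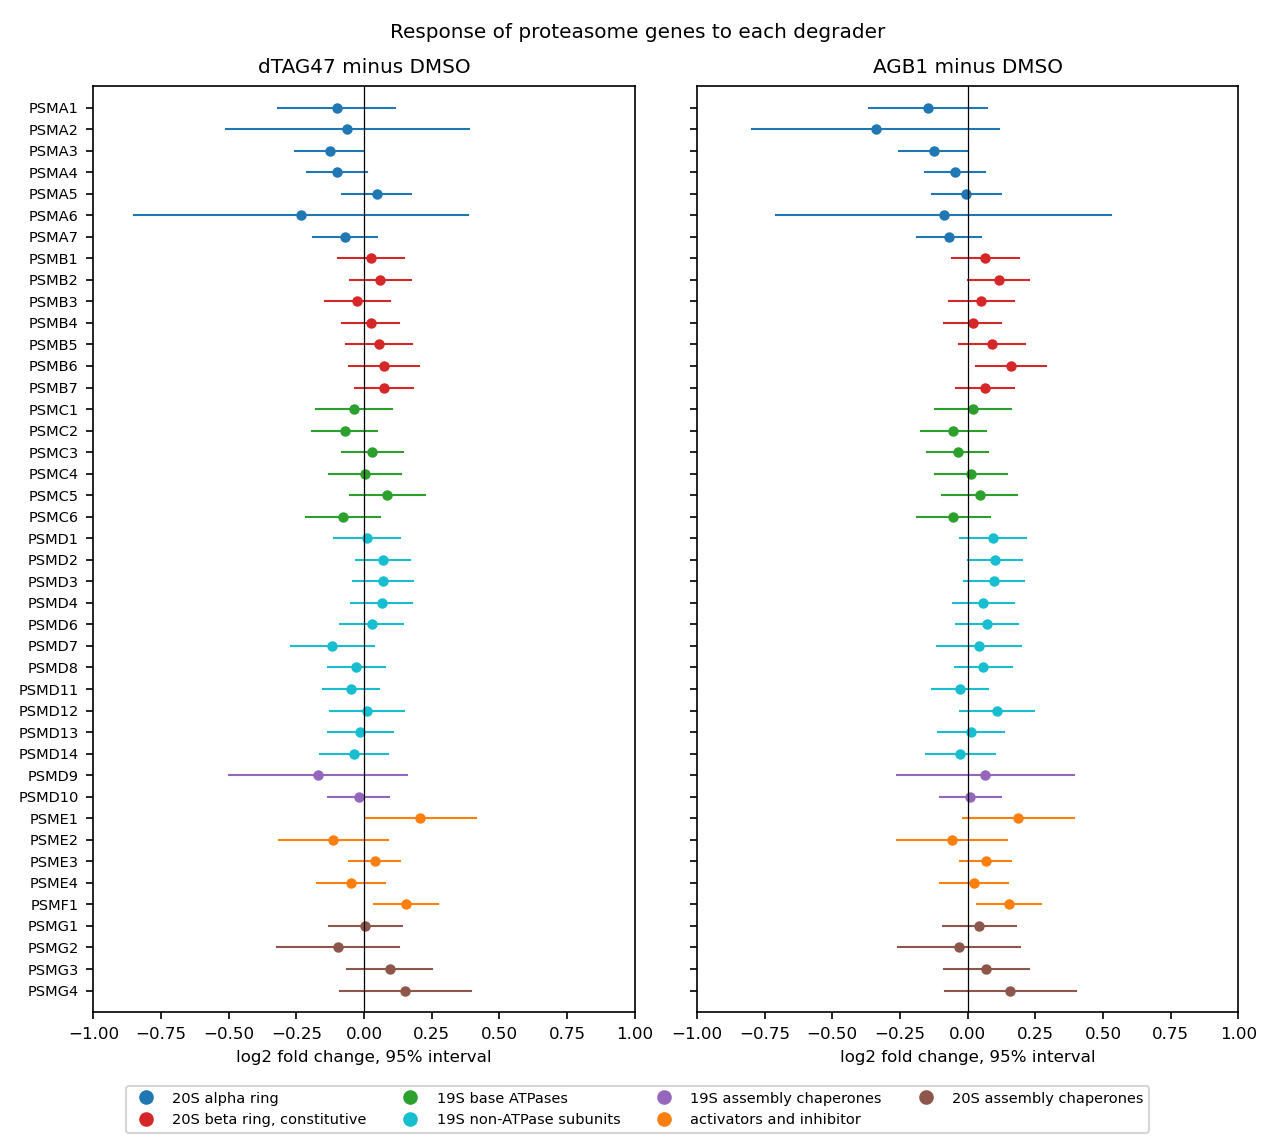
Log2 fold change of each tested proteasome gene with dTAG47 (left) and AGB1 (right) against DMSO, with 95% intervals from the edgeR fit to 3 libraries per group and colours for classes. Most intervals lie close to 0. PSMB9 and PSMB10, at 0.738 and 0.770 CPM on average, are not drawn because genes below 1 CPM were left out.

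The beta ring genes had small values on the higher side in both comparisons. Their median log2 fold change was 0.06 with dTAG47, positive in 6 of 7, and 0.07 with AGB1, positive in 7 of 7, and all 7 intervals lay within 1.3-fold in each. Among the 3 catalytic subunits, PSMB6, the caspase-like site, was at 113, 117 and 127 CPM in DMSO, 130, 126 and 120 CPM with dTAG47 and 128, 133 and 139 CPM with AGB1. The AGB1 libraries lay above all DMSO libraries, at a log2 fold change of 0.16 ± 0.06 (SE; adjusted p = 0.495, edgeR). With dTAG47 the libraries overlapped DMSO and the log2 fold change was 0.07.

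PSMB5, the chymotrypsin-like site and the target of bortezomib, was at 173, 181 and 195 CPM in DMSO, 190, 184 and 197 CPM with dTAG47 and 187, 206 and 192 CPM with AGB1. PSMB7, the trypsin-like site, was at 200, 197 and 209 CPM in DMSO, 213, 213 and 210 CPM with dTAG47 and 213, 208 and 212 CPM with AGB1. Its dTAG47 libraries lay just above DMSO and its AGB1 libraries overlapped, both at a log2 fold change of 0.07. PSMB2, a beta ring subunit without a protease site, was at 223, 235 and 215 CPM in DMSO and 253, 238 and 237 CPM with AGB1, without overlap, at a log2 fold change of 0.11 ± 0.05 (SE; adjusted p = 0.629, edgeR). With dTAG47 PSMB2 was at 230, 244 and 227 CPM, within reach of DMSO.

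The alpha ring genes had small values on the lower side. The median log2 fold change was -0.10 with dTAG47, positive in 1 of 7 (PSMA5), and -0.09 with AGB1, positive in 0 of 7. PSMA3 was at 143, 154 and 162 CPM in DMSO, 129, 147 and 144 CPM with dTAG47 and 139, 142 and 140 CPM with AGB1. The AGB1 libraries all lay below DMSO and the dTAG47 libraries overlapped it, and the log2 fold change was -0.13 in each (adjusted p = 0.681 and 0.655, edgeR). PSMA4 was at 356, 377 and 394 CPM in DMSO, 323, 358 and 371 CPM with dTAG47 and 358, 374 and 359 CPM with AGB1. Its libraries overlapped in both comparisons, at log2 fold changes of -0.10 and -0.05. PSMA7 was at 252, 278 and 292 CPM in DMSO, 278, 259 and 246 CPM with dTAG47 and 257, 263 and 264 CPM with AGB1, also with overlap.

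Of the low alpha ring genes, PSMA2 and PSMA6 were too sparse to bound within 1.3-fold. PSMA6 was at 1.57, 3.02 and 1.98 CPM in DMSO, 1.85, 1.94 and 1.80 CPM with dTAG47 and 2.25, 2.11 and 1.81 CPM with AGB1. PSMA2, at 3.01 to 6.48 CPM over the 9 libraries, had a log2 fold change of -0.34 with AGB1 and a 95% interval of -0.80 to 0.11.

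Set against each other by their sums, the rings had a higher beta to alpha ratio in the treated libraries. The summed CPM of the 7 beta genes over that of the 7 alpha genes was 1.39, 1.33 and 1.32 in DMSO 1 to 3. It was 1.504, 1.44 and 1.42 with dTAG47 and 1.48, 1.47 and 1.47 with AGB1, so all 6 treated libraries lay above the 3 DMSO libraries. The group means were 1.35 ± 0.0380, 1.45 ± 0.0447 and 1.48 ± 0.00819 (SD, n = 3). The median log2 fold change of the beta ring minus that of the alpha ring was 0.154 with dTAG47 and 0.154 with AGB1. A separate measure, taken library by library, was the beta median minus the alpha median of each gene's deviation from its mean. It was -0.01, -0.13 and -0.09 in DMSO, 0.12, 0.02 and -0.06 with dTAG47 and 0.05, 0.04 and 0.07 with AGB1. Its SD between single libraries of a group was 0.0644. On this measure dTAG47 3 lay below DMSO 1, so dTAG47 overlapped DMSO while AGB1 did not. The ratio was computed after the ring values had been seen, and no test was made of it.

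Alpha sums were 930, 997 and 1056 CPM in DMSO, and the 6 treated libraries lay between 924 and 959 CPM. Beta sums were 1292, 1322 and 1394 CPM in DMSO, 1389, 1378 and 1356 CPM with dTAG47 and 1403, 1408 and 1405 CPM with AGB1. The rings differ in base composition, with a median transcript GC content of 40.7% in the alpha ring and 49.9% in the beta ring. The rank correlation between GC content and a library's deviation across all tested genes was -0.231, -0.160 and 0.188 in DMSO, 0.390, -0.199 and 0.0176 with dTAG47 and -0.00830, -0.0244 and 0.0271 with AGB1. With the GC trend of each library removed, the beta minus alpha difference was 0.125 with dTAG47 and 0.153 with AGB1.

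**Figure D4:**
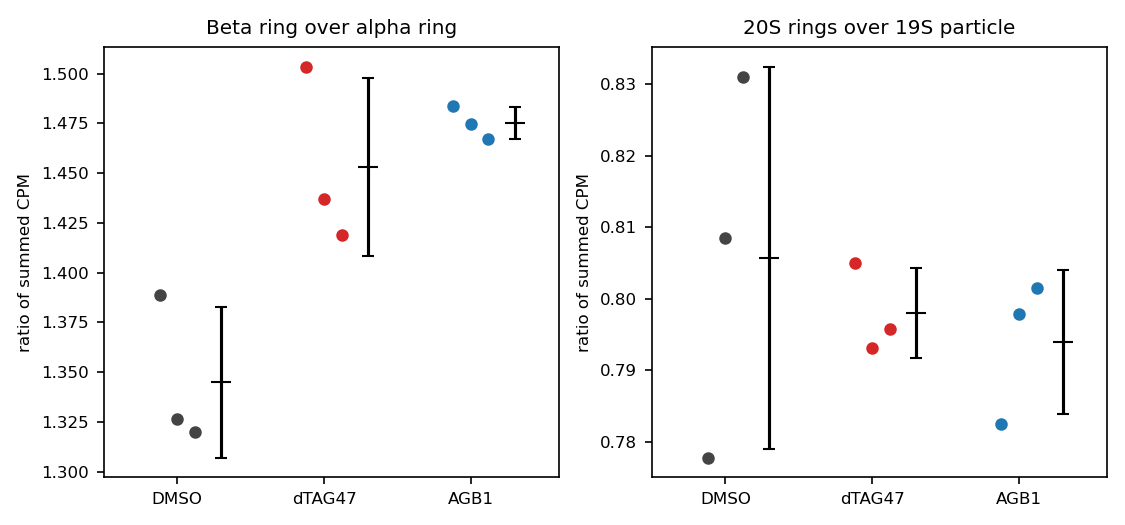
Ratio of summed CPM of the 7 beta ring genes to the 7 alpha ring genes (left) and of the 14 ring genes to the 17 19S genes (right), a point per library, with the mean and SD of 3 libraries in black; the axes do not start at 0. The beta to alpha ratio is 1.32 to 1.39 in DMSO and 1.42 to 1.504 in the treated libraries, and the 20S to 19S ratio overlaps between all groups.

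The 19S particle had small median fold changes in each class. Its ATPases had a median log2 fold change of -0.02 with dTAG47 and -0.01 with AGB1, each positive in 3 of 6. The non-ATPase subunits had medians of 0.01, positive in 6 of 11, and 0.06, positive in 9 of 11. All 17 intervals lay within 1.3-fold in both comparisons. The non-ATPase subunits summed to 2086, 2073 and 2107 CPM in DMSO and 2210, 2168 and 2151 CPM with AGB1, without overlap. With dTAG47 they summed to 2070, 2150 and 2111 CPM, with overlap. The ATPase sums overlapped DMSO in both comparisons. PSMD2, a large scaffold subunit of the base, was at 319, 315 and 326 CPM in DMSO, 340, 335 and 332 CPM with dTAG47 and 351, 343 and 335 CPM with AGB1. Both treated groups lay above DMSO without overlap, at log2 fold changes of 0.07 ± 0.05 (SE; adjusted p = 0.805, edgeR) and 0.10 ± 0.05 (SE; adjusted p = 0.630, edgeR).

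PSMC3 was at 171, 169 and 182 CPM in DMSO, 182, 177 and 175 CPM with dTAG47 and 170, 169 and 170 CPM with AGB1. PSMC1, another ATPase and the lowest 19S gene per kilobase, was at 69.8, 77.3 and 76.0 CPM in DMSO, 74.7, 73.2 and 69.6 CPM with dTAG47 and 75.4, 74.9 and 75.6 CPM with AGB1. Both genes overlapped DMSO in either treated group.

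Of the other regulators, PSMF1 had the smallest p in both comparisons. PSMF1, also called PI31, inhibits the 20S core in vitro. It was at 151, 155 and 160 CPM in DMSO, 182, 168 and 168 CPM with dTAG47 and 178, 170 and 169 CPM with AGB1. Every treated library lay above every DMSO library. The log2 fold changes were 0.16 ± 0.06 (SE; adjusted p = 0.531, edgeR) with dTAG47 and 0.15 ± 0.06 (SE; adjusted p = 0.477, edgeR) with AGB1, and neither passed the test.

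The activators differed among themselves. PSME1 and PSME2 encode the alpha and beta chains of the interferon-inducible PA28 cap. PSME1 was at 36.2, 29.2 and 40.03 CPM in DMSO, 42.8, 42.5 and 36.4 CPM with dTAG47 and 40.3, 37.7 and 42.2 CPM with AGB1, with overlap in both comparisons, and its log2 fold changes were 0.21 ± 0.10 (SE; adjusted p = 0.681, edgeR) and 0.19 ± 0.10 (SE). Its partner PSME2 had values of -0.11 and -0.06. PSME3, the nuclear PA28 gamma, was the most counted member at 419, 427 and 416 CPM in DMSO, 436, 427 and 434 CPM with dTAG47 and 447, 437 and 437 CPM with AGB1. PSME4, the PA200 cap, had log2 fold changes of -0.05 and 0.02.

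The 4 chaperones of 20S assembly, PSMG1 to PSMG4, had medians of 0.05 and 0.06, positive in 3 of 4 in each comparison, and values from -0.10 to 0.16. PSMD10 was at 236, 236 and 258 CPM in DMSO, 225, 248 and 247 CPM with dTAG47 and 239, 249 and 246 CPM with AGB1, with overlap throughout. PSMD9, a chaperone that sits on an ATPase pair during assembly, was at 8.99, 11.1 and 7.98 CPM in DMSO, 8.53, 6.99 and 9.43 CPM with dTAG47 and 9.16, 9.06 and 11.1 CPM with AGB1. PSMC3IP, the member that is no proteasome gene, was at 17.7 to 21.0 CPM over the 9 libraries, with log2 fold changes of -0.03 and 0.02. It shares 47.4% of its words with the opposite-strand gene MLX, which was at 64.2 CPM.

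**Figure D5:**
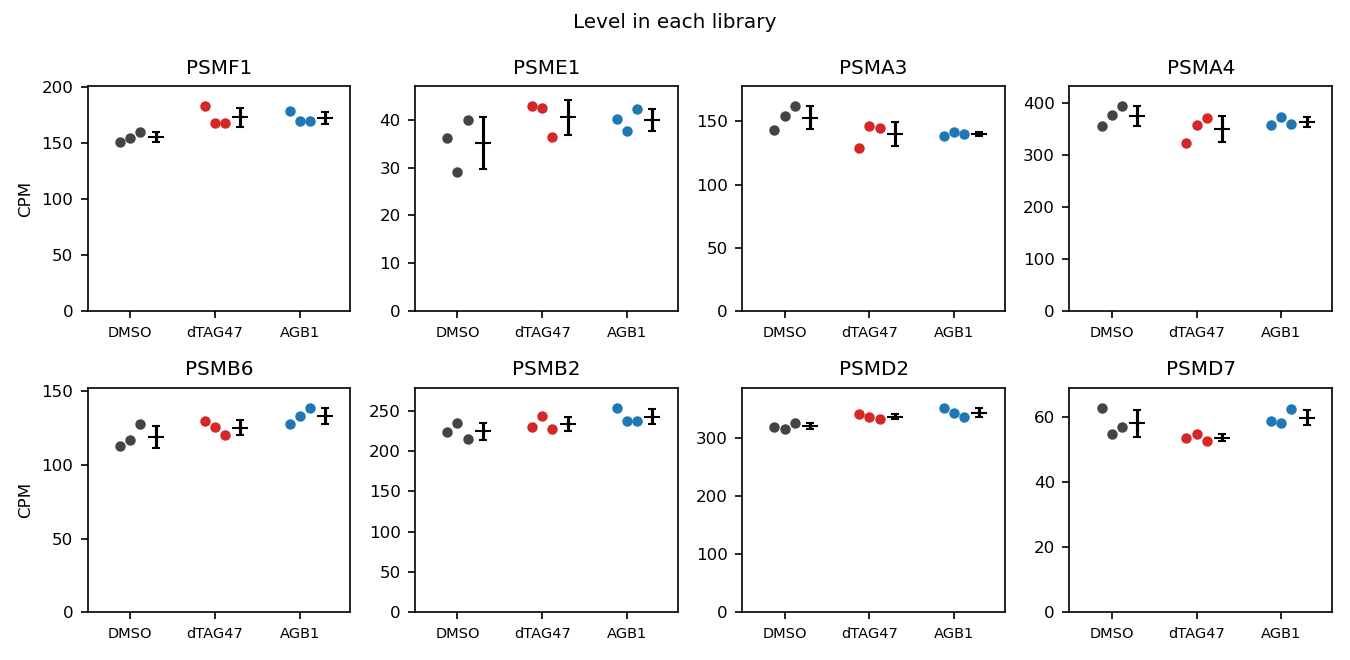
Level of 8 members in CPM, a point per library for DMSO, dTAG47 and AGB1, with the mean and SD of 3 libraries in black and axes from 0. PSMF1 and PSMD2 lie above DMSO in all 6 treated libraries, at 168 to 182 CPM and 332 to 351 CPM; none of the 8 passed the adjusted test.

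Counts of members whose libraries did not overlap DMSO were read against all tested genes. With dTAG47, 4 members lay above DMSO (PSMD2, PSMB7, PSME3 and PSMF1) and 1 below (PSMD7), where 5.8% of all tested genes lay above and 5.82% below. With AGB1, 8 lay above (PSMD2, PSMD6, PSMD8, PSMB2, PSMB6, PSMB10, PSME3 and PSMF1) and 1 below (PSMA3), where the shares were 6.56% and 6.75%. Of the 44 members tested, the dTAG47 counts are near the background shares, and the 8 of 44 above DMSO with AGB1 exceed theirs. All of the members listed here except PSMB10, at 0.770 CPM on average, were counted well above the median of all tested genes, and the background was not matched for level.

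The medians of the 20S core and of its regulators lay close together. The 14 ring genes had a median log2 fold change of -6.66e-05 with dTAG47 and 0.00630 with AGB1, and the 28 tested 19S and other regulator genes had medians of 0.00392, positive in 15, and 0.0439, positive in 21. The difference of medians was taken with PSMB9 and PSMB10 in the core, which made 16 genes and left both core medians the same. This difference was -0.00399 with dTAG47 and -0.0376 with AGB1. Core minus regulators taken library by library, from medians of each gene's deviation from its mean, had an SD of 0.0347 between single libraries of a group. The difference of median fold changes with dTAG47 turned positive without DMSO 2 (0.0173), DMSO 3 (0.0274), dTAG47 2 (0.0385) or dTAG47 3 (0.0197). It stayed negative without DMSO 1 (-0.0170) or dTAG47 1 (-0.0439). With AGB1 and single libraries left out, it turned positive only without DMSO 3 (0.0109). The summed CPM of the rings over that of the 19S particle was 0.778, 0.809 and 0.831 in DMSO, 0.805, 0.793 and 0.796 with dTAG47 and 0.782, 0.798 and 0.801 with AGB1, and all treated libraries lay inside the DMSO range. The rings summed to 2222 to 2450 CPM in DMSO, 2312 to 2337 CPM with dTAG47 and 2348 to 2363 CPM with AGB1. The 19S and other regulator genes summed to 4153 to 4278 CPM in DMSO and 4309 to 4377 CPM with AGB1, without overlap. With dTAG47 they summed to 4198 to 4302 CPM and overlapped DMSO. No test was made of these sums.

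Set directly against each other, dTAG47 and AGB1 gave 0 called genes by edgeR among the 44 members and 0% of all tested genes. At an unadjusted p under 0.05, where 4.02% of all tested genes lay (1.77% on the lower side), the only member was PSMD7, the partner of the deubiquitinase PSMD14 in the 19S lid. PSMD7 was at 62.8, 54.9 and 56.8 CPM in DMSO, 53.5, 54.8 and 52.6 CPM with dTAG47 and 58.9, 58.2 and 62.4 CPM with AGB1. The dTAG47 libraries lay below both other groups, and the log2 fold change of dTAG47 against AGB1 was -0.16 ± 0.08 (SE; adjusted p = 0.999, edgeR). PSMD7 shares 43.7% of its words with the opposite-strand transcript AC009120.2, which was at 1.54 CPM.

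PSMD8, a lid subunit, was at 218, 220 and 228 CPM in DMSO, 214, 219 and 220 CPM with dTAG47 and 232, 231 and 230 CPM with AGB1, and its log2 fold change between the compounds was -0.09. PSMD12, another lid subunit, was at 207, 175 and 168 CPM in DMSO, 170, 195 and 189 CPM with dTAG47 and 202, 198 and 193 CPM with AGB1, at -0.10 between the compounds. Over the 44 members the median was -0.0282, with 11 positive, beside 50% of all tested genes, and 39 intervals lay within 1.3-fold, beside 50.1% of all tested genes. Of members without overlap, 1 lay above AGB1 (PSMC3) and 4 below (PSMC1, PSMD7, PSMD8 and PSME3), beside 5.35% and 5.1% of all tested genes.

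The genes around the proteasome were read from 4 lists, and 0 of their 46 tested genes were called by edgeR in either comparison. Of 10 further proteasome components and partners, 4 were positive with dTAG47 and 6 with AGB1, with medians of -0.01 and 0.01 and 0 at an unadjusted p under 0.05. ADRM1, a ubiquitin receptor of the 19S particle, was at 46.9, 47.7 and 62.0 CPM in DMSO, 61.4, 50.8 and 52.7 CPM with dTAG47 and 49.1, 54.0 and 52.2 CPM with AGB1. SEM1, the smallest lid subunit, was at 77.8, 81.4 and 96.9 CPM in DMSO, 81.4, 84.8 and 79.8 CPM with dTAG47 and 77.1, 80.5 and 84.4 CPM with AGB1. POMP, the maturation factor of the 20S core, was at 123, 127 and 145 CPM in DMSO, 135, 129 and 128 CPM with dTAG47 and 131, 120 and 117 CPM with AGB1. Each of the 3 overlapped DMSO in at least 1 library. PAAF1, which binds the ATPases, had the smallest p of the list in both comparisons, at log2 fold changes of 0.13 and 0.19.

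NRF1, encoded by NFE2L1, is made inactive at the endoplasmic reticulum, and NGLY1 and DDI2 process it into the active factor. NFE2L1 was at 203, 182 and 212 CPM in DMSO, 214, 214 and 207 CPM with dTAG47 and 211, 206 and 212 CPM with AGB1. DDI2 was at 140, 126 and 113 CPM in DMSO, 126, 129 and 125 CPM with dTAG47 and 135, 132 and 129 CPM with AGB1. NGLY1 was at 63.6, 71.2 and 72.1 CPM in DMSO, 60.2, 66.4 and 70.4 CPM with dTAG47 and 68.4, 64.1 and 70.7 CPM with AGB1. All 3 overlapped DMSO. Over the 7 genes of this list 4 and 5 were positive, with medians of 0.00215 and 0.06, and MAFF, a small partner of NRF1, had the widest dTAG47 value at 0.42 ± 0.27 (SE).

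Of 14 genes that supply or carry ubiquitin, 8 were positive with dTAG47 and 6 with AGB1. UBB, which encodes ubiquitin, was at 252, 244 and 273 CPM in DMSO and 287, 264 and 286 CPM with AGB1, with overlap, at a log2 fold change of 0.12 ± 0.05 (SE; adjusted p = 0.588, edgeR). UBA6, a ubiquitin-activating enzyme, had the smallest p with dTAG47, at -0.12.

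Of 15 interferon and antigen processing genes, 7 were positive in each comparison, with medians of -0.00132 and -0.00617. TAP1 and TAP2, which carry proteasome products into the endoplasmic reticulum, were the 2 at an unadjusted p under 0.05 with dTAG47, both higher. Among all tested genes 7.28% lay there, 3.65% on the higher side. Without overlap, 3 of the 15 lay above DMSO with dTAG47 and 1 below, beside 5.8% and 5.82% of all tested genes. The 1 below was NLRC5, at 2.75, 2.96 and 4.47 CPM in DMSO and 2.50, 2.35 and 2.44 CPM with dTAG47. TAP1 was at 15.9, 14.4 and 17.9 CPM in DMSO and 22.0, 19.6 and 18.8 CPM with dTAG47, without overlap, at a log2 fold change of 0.32 ± 0.12 (SE; adjusted p = 0.540, edgeR). CIITA, the regulator of class II antigen presentation genes, had the smallest p with AGB1, at -0.73 ± 0.40 (SE).

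Promoter sequence was read for 42 of the 48 proteasome genes from RefSeq (GRCh38.p14), as the 250 bases before each annotated start. PSMA7, PSMB1, PSMB6, PSMB7, PSMD4 and PSMG3 were not among them. The letters GAAA, any 2 bases and GAAA again, on either strand, the core of the element that interferon regulatory factors read, occurred in 5 of 42 (11.9%), beside 3.60% of 15843 protein-coding genes. The printed windows show this match, in capitals, in the 3 members where it lies within 40 bases of the start, to set an immunoproteasome subunit, a PA28 chain and a 20S assembly chaperone side by side. Each runs 5′ to 3′ on the gene's strand up to the base before the start.
PSMB10, chr16:67936851-67936911, minus strand: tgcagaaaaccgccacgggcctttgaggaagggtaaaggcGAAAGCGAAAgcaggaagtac
PSME2, chr14:24146611-24146678, minus strand: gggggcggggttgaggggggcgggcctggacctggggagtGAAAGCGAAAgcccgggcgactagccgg
PSMG4, chr6:3258874-3258946, plus strand: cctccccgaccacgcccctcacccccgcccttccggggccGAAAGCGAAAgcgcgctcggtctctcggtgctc

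The match starts 21 bases before the start in PSMB10, 28 in PSME2 and 33 in PSMG4, and all 3 hold the same letters, GAAAGCGAAA. Their mRNAs differed in level in these cells, with DMSO means of 0.293 CPM per kilobase for PSMB10, 8.40 for PSME2 and 1.56 for PSMG4. A match is a description of letters and not a site of binding.

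The letters TGACNNNGC on either strand, the core of the antioxidant response element that NRF1 and its small MAF partners read, occurred in 13 of 42 (31.0%), beside 14.7% of the 15843 genes. By class they were in 2 of 10 ring genes, 1 of 5 variants (PSMB9), 3 of 16 19S genes and 7 of 11 other regulators. The windows below are 1 each from the rings, the 19S particle and the other regulators. They show the match in capitals and 40 bases on each side or up to the start.
PSMB3, chr17:38752597-38752685, plus strand: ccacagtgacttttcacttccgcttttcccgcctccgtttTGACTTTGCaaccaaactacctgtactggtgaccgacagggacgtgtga
PSMD3, chr17:39980730-39980806, plus strand: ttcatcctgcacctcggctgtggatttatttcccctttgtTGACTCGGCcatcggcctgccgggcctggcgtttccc
PSME1, chr14:24136068-24136156, plus strand: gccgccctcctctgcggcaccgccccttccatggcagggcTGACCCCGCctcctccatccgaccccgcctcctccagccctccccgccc

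These matches start 104, 37 and 86 bases before the start. The log2 fold changes of PSMB3 and PSMD3 were -0.02 and 0.07 with dTAG47 and 0.05 and 0.10 with AGB1. Of the 7 other regulators with the match, PSMD5 was not tested, and the remaining 6 ran from -0.17 (PSMD9) to 0.21 (PSME1) with dTAG47, with PSME2 at -0.11, PSMG2 at -0.10, PSME4 at -0.05 and PSMG1 at 0.00. With AGB1 they ran from -0.06 (PSME2) to 0.19 (PSME1), and none passed the test. The letters TTCNNNGAA, read by STAT factors, were in 7 of 42 (16.7%), beside 7.89%, and CCAAT was in 19 of 42 (45.2%), beside 40.2%. No enrichment was tested, and the match counts were not adjusted for the base composition of the promoters.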

How the data were processed

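Poly(A)-selected RNA was sequenced in 9 libraries, 3 per group, grouped by the treatment in the labels. The authors deposited raw whole-number counts for each gene. HISAT2, DESeq2 and hg38 are named in the submitters' processing notes. Tool versions, the counter and whether it used strand were not given in the sources used here. Gene models match GENCODE 29 in 58724 of 58735 genes.

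Genes passing filterByExpr (18319) were scaled by TMM and fitted in edgeR 4.0.16 (R 4.3.3) by a single quasi-likelihood model with 1 coefficient for each group. Benjamini-Hochberg adjustment ran over all 18319, with a threshold of 0.05. Levels are CPM on TMM-scaled library sizes, and a library's GC trend was fitted by lowess (span 0.3). Reads carry no molecular identifiers. The fit was tested on simulated data.

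Members and gene lists were chosen with earlier results of these data known. The text names the catalytic subunits and their variants, the 4 members with the smallest p per comparison, the highest and lowest level per kilobase in each of the core, 19S and other regulators, PSMC3IP, 6 pathway genes, and the smallest p of each pathway list, except an item not reported here. All other members, UBB, TAP2, NLRC5 and genes that overlap members were named after their values were seen. Alternatives were DESeq2 1.42.0, limma-voom (limma 3.58.1), other scalings and filters, a GC correction, a replicate block, added pseudogene counts and each library left out.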

Additional observations from a re-analysis of the deposited data

How the results depend on the processing

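No proteasome gene was called in any of the 3 comparisons under the 19 other settings run for each, including every library left out. All 3249 of 3249 values of single genes kept their side of the threshold. The smallest adjusted p of a member in the main fit was 0.477 (edgeR), far from that threshold, so this count says little about the fold changes. Some changed sign over the settings, such as PSMA6 (-0.420 to 0.0644) and PSMB10 (-0.151 to 0.690) with dTAG47. Others did not, such as PSMF1 with dTAG47 (0.0966 to 0.177). Counts of called genes among all tested also moved. For dTAG47 against DMSO (11 called) they were 47 with DESeq2, 43 without a count filter, 22 with the GC trend removed, 4 with only the 2 groups in the fit, 6 without DMSO 1 and dTAG47 1 together (chosen after seeing the data), and 2 (without dTAG47 1) to 20 (without DMSO 3) with 1 library left out. For AGB1 against DMSO (19 called) they were 81 with DESeq2, 67 without a filter, 48 with the GC trend removed, 51 with that and the replicate block, 29 without DMSO 1 and dTAG47 1, and 6 (without AGB1 3) to 55 (without DMSO 3) with 1 library left out. For dTAG47 against AGB1 (0 called) they were 13 without a filter, 2 without DMSO 1 and dTAG47 1, and 0 to 2 with 1 library left out.

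The median of the 20S core with its tested variants minus that of its regulators was -0.0464 with dTAG47 without a count filter. In that setting 47 proteasome genes entered in place of 44, PSMA8 and PSMB8 with few counts among them, so the sets compared were not the same. Without DMSO 1 and dTAG47 1 the difference was -0.0729. With 1 library left out (44 or 45 genes) it ran from -0.0439 (without dTAG47 1) to 0.0385 (without dTAG47 2). With AGB1 it ran from -0.0622 to 0.0109, the positive value without DMSO 3, and between the compounds from -0.00960 to 0.0244. In the main fit between the compounds, medians were -0.0372 for the core with variants, -0.0191 for the rings alone and -0.0271 for the regulators. The beta minus alpha difference stayed positive, at 0.101 to 0.183 with dTAG47 and 0.110 to 0.221 (without DMSO 1) with AGB1 with 1 library left out, and was 0.221 with AGB1 without DMSO 1 and dTAG47 1. Between the compounds it was -0.0876 to -0.0267. The causes were not tested.

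The labels do not say whether replicate numbers pair the libraries. The deviations of the 9 same-numbered pairs correlated at -0.161 to 0.0726 over 11436 genes. Pairs with unlike numbers ran from -0.258 (DMSO 3 with dTAG47 2) to 0.270 (DMSO 3 with dTAG47 1). Of the libraries, 0 correlated best with their own number in both other groups. These values cannot show how the libraries were prepared. With the replicate block, 10, 17 and 0 genes and 0 proteasome genes were called, the beta minus alpha difference was 0.157 and 0.132, and the core minus regulators difference was -0.00450 and -0.0369. The smallest differences that 3 libraries can show are set by the intervals above, and PSMA2, PSMA6, PSMB9 and PSMB10, all below 5 CPM on average, were not bounded within 1.3-fold.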

Other observations

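Of 32 pseudogenes with a parent among the members, PSMC1P1 (771 counts over the 9 libraries), PSMA6P1 (536) and PSMD12P (295) held the most, and the next, PSMC1P9, held 30. Against their parents these were 3.37% of PSMC1, 85.2% of PSMA6 and 0.506% of PSMD12. PSMG3-AS1, a non-coding RNA opposite PSMG3, was at 7.94 CPM on average, and PSMB8-AS1, opposite PSMB8, had 8 counts in all.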
